A study of Drosophila melanogaster with 15 samples.

Results

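The genes described here encode Nimrod family proteins and Draper. Among these are receptors that Drosophila hemocytes and other phagocytes use to bind bacteria and dying cells. NimB1, NimB2, NimB4 and NimB5 are secreted proteins of the family. Members were the probe sets whose platform annotation gives exactly 1 gene symbol among NimB1, NimB2, NimB4, NimB5, NimC1, NimC2, eater and drpr. These were 8 of the 10844 genes named in this way, with 9 of 13966 probe sets in all, drpr having 2. Of the 9, 8 passed the filter on low signals, 1 for each gene, among 11427 that did over the whole array. The other drpr probe set did not pass.

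The arrays held RNA of whole larvae in the third instar, 3 arrays in each of 5 groups, and each array came from a pool of 20 larvae. Wild type larvae, a genotype that follows from the series design, were injected with roughly 0.1 microliter of fluid, either PBS (a saline buffer) or E. coli. Larvae carrying the mutation Relish E20, Dif1 or dorsal1, each in 1 of the 3 genes for fly transcription factors of the NF-kappaB type, received E. coli according to their treatment text, and RNA was taken 2 h after injection. The comparison asks how loss of each factor alters transcripts after contact with a Gram-negative bacterium. The titles of all 9 mutant arrays hold the letters ctr, as do those of the wild type PBS arrays, and the Dif treatment text speaks of control flies, so this conflict is not settled. No mutant larvae with PBS were analysed here, so a mutant and wild type may also differ as stocks. In whole larvae, fewer cells of a type and less RNA per cell cannot be told apart.

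Nimrod proteins share a repeat of the EGF type, the NIM repeat, and fall into transmembrane proteins of the NimC type and secreted proteins of the NimB type. NimC1 and Eater are surface receptors of plasmatocytes, the phagocytic blood cells of the larva, and take part in the uptake of bacteria. Draper is the fly counterpart of the worm receptor CED-1 and serves the engulfment of dying cells by hemocytes and of neuronal debris by glia. In the RefSeq order of genes on the arm 2L, NimA, NimB1, NimB2, NimB3, NimB4, NimB5, He, NimC1, Cyp28a5 and NimC2 follow each other as neighbouring coding genes. The gene eater lies on 3R and drpr on 3L.

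The Relish label was checked on Rel, the gene that encodes Relish. The Dif and dorsal labels were not checked in this way. The Relish mutant arrays gave 18.9, 11.4 and 27.4 units. Wild type larvae gave 807.0, 663.6 and 721.8 after PBS, and 4980.7, 3095.2 and 3328.6 after E. coli. The Dif mutant arrays gave 1091.5, 1191.2 and 1272.7, and the dorsal mutant arrays 1186.9, 373.5 and 1306.5. Rel was thus lower in the Dif (-1.59, adjusted p = 0.0171) and dorsal mutants (-2.03, adjusted p = 0.00251) than in wild type with E. coli, and its differences from wild type with PBS, 0.64 (adjusted p = 0.341) and 0.20 (adjusted p = 0.841), did not pass. These values bear on the conflict between titles and treatment text, which they do not settle. The trimmed mean signal was between 800.2 and 800.25 on every array, and the median signal between 245.5 and 340.5. Differences below are on the log2(signal + 80) scale, which understates changes of low signals, and each has the standard error (SE) of the fit over all arrays. A probe set was called when its adjusted p, over all probe sets tested, was under 0.05. Signals of different probe sets are not comparable in level.

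Among the 8 tested genes, 4 differences passed the test over the 10 pairs of groups. NimC1 was higher in the Dif mutant than in wild type with E. coli, and NimC2 was higher in the dorsal mutant than in wild type with E. coli. The drpr signal was lower in the Dif mutant than in the dorsal mutant, and NimB2 was lower in the dorsal mutant than in wild type with PBS. None of the 8 passed between E. coli and PBS in wild type, or in any comparison of the Relish mutant. Over all 5 groups, drpr (F = 6.12, adjusted p = 0.0427) and NimB2 (F = 5.96, adjusted p = 0.0462) passed the moderated F-test, as did 7.31% of all probe sets. NimC2 was next, with an adjusted p of 0.0570. Some arrays of a group have titles with a shared number, namely wild type PBS replicates 2 and 3, wild type E. coli replicates 2 and 3 and dorsal replicates 1 and 2, and whether such a pair had a common source is not stated. With each such pair averaged, none of the 4 differences passed. The adjusted p-values were 0.113 for NimC1, 0.222 for NimC2, 0.0829 for drpr and 0.247 for NimB2. In these 4 comparisons averaging also lowered the calls over all probe sets, from 306, 402, 592 and 339 to 110, 71, 152 and 28. Of 11 alternative settings, averaging included, 7 ended the call of NimC1, 7 that of NimB2, 3 that of NimC2 and 3 that of drpr.

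**Figure D1:**
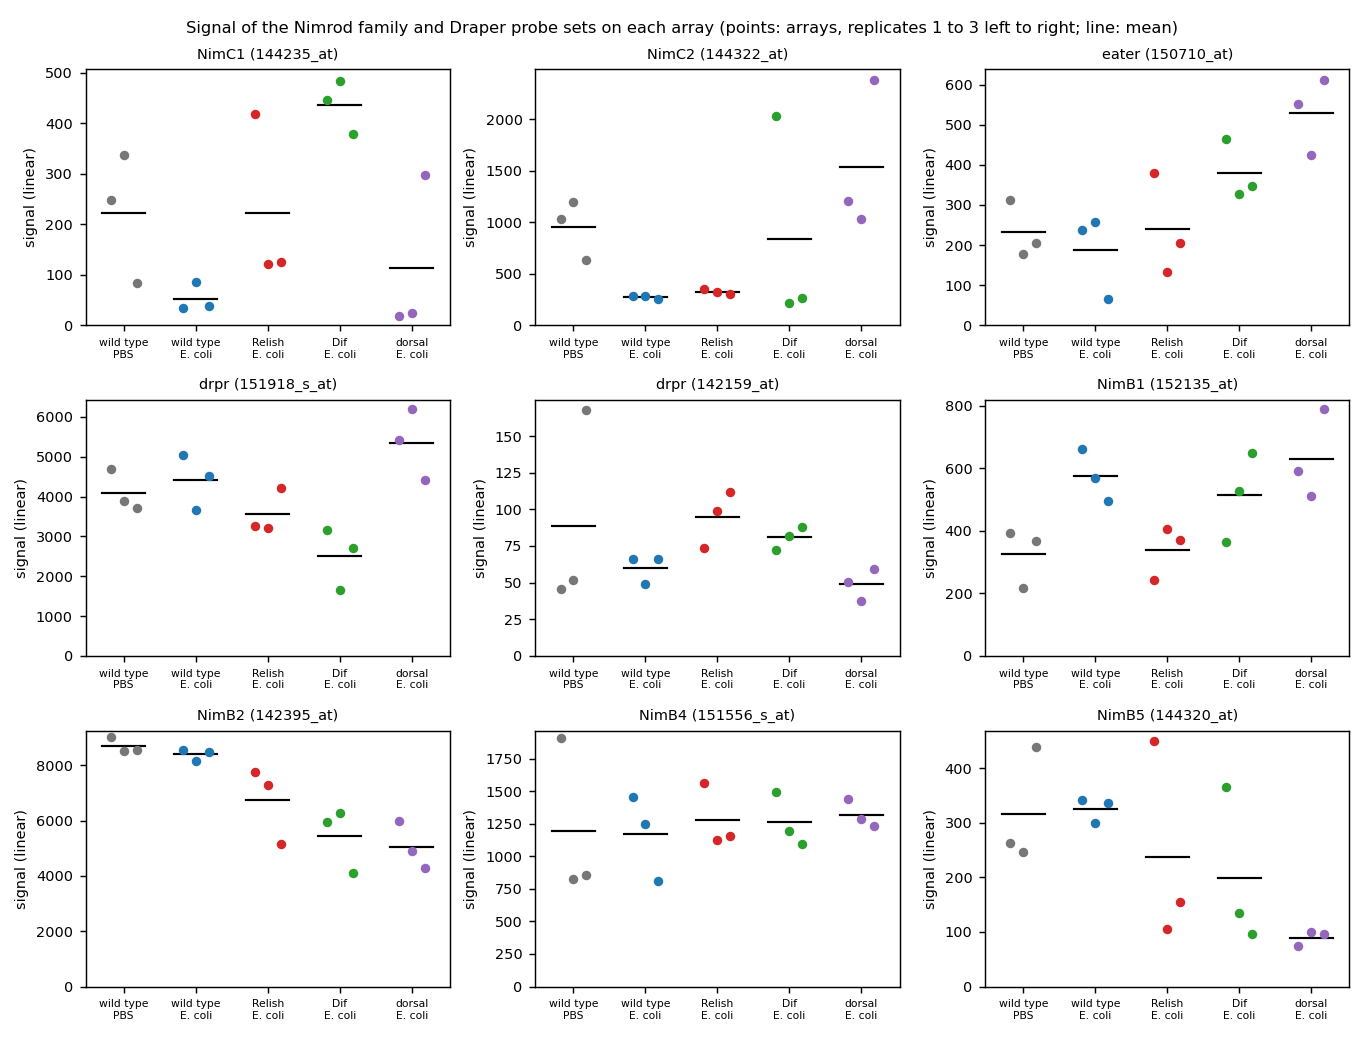
Signal (linear units, y axis from 0, a different range in each panel) of the 9 probe sets on each of the 15 arrays. Points are arrays, in replicate order from left to right, and the horizontal line is the mean of the 3 arrays of a group. NimC2 lies between 257.7 and 285.5 on the 3 wild type E. coli arrays and at or above 1031.0 in the dorsal mutant, and NimB2 is at most 7747.0 on the mutant arrays and at least 8159.9 on the wild type arrays.

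NimC1, the surface receptor that carries the P1 antigen of plasmatocytes, had a signal of 34.4, 86.1 and 37.5 units in wild type with E. coli. Its signals in the Dif mutant were 445.3, 483.3 and 379.3, and every Dif array lay above every wild type array with E. coli. The difference was 1.98 on the log2 scale (SE 0.52, 95% interval 0.89 to 3.06, adjusted p = 0.0487), or 3.93-fold on that scale. The same test called 1.14% of probe sets higher in the Dif mutant. Wild type arrays with PBS gave 247.7, 337.7 and 84.2, below every Dif array, and the difference of 0.87 between these groups did not pass (adjusted p = 0.401). The Relish mutant gave 418.3, 120.4 and 125.1, and its first array lay within the range of the Dif mutant. In the dorsal mutant the signals were 18, 24.1 and 297.2, a spread that covers the whole wild type range with E. coli. NimC1 was 1.71 higher in the Dif than in the dorsal mutant with no overlap of arrays, which did not pass over all arrays (SE 0.52, adjusted p = 0.0620). Without dorsal replicate 3 this difference was 2.35 and passed (adjusted p = 0.00882). Over the fits that each left out 1 of the 6 arrays, it ran from 1.38 to 2.35, with adjusted p-values up to 0.213. The call against wild type with E. coli was lost when any of the 6 arrays was left out, with adjusted p-values from 0.0867 to 0.146.

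NimC2 is a transmembrane relative of NimC1. Wild type larvae gave 1030.2, 1200.7 and 631.7 after PBS and 285.5, 282.2 and 257.7 after E. coli. All arrays with E. coli lay below all arrays with PBS. In this comparison the groups did not overlap for 2 of the 8 members, NimC2 and NimB1, and for 12% of all probe sets. The difference of -1.50 did not pass over all arrays (SE 0.53, adjusted p = 0.769). The Relish mutant gave 348.0, 325.7 and 306.4 units, near the wild type level with E. coli.

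In the dorsal mutant the NimC2 signals were 1205.2, 1031.0 and 2377.8. All 3 arrays lay above every wild type array with E. coli, and they overlapped the range of wild type with PBS. NimC2 was 2.10 higher in the dorsal mutant than in wild type with E. coli (SE 0.53, 95% interval 0.98 to 3.22, adjusted p = 0.0367), or 4.28-fold, where 1.64% of all probe sets were called higher. Leaving out any of the 6 arrays ended this call, with adjusted p-values from 0.0559 to 0.134. The Dif mutant arrays fell apart for this gene, with 2037.0 on the first array and 215.9 and 267.6 on the others. Without that first array, NimC2 differed between the Dif and the dorsal mutant by -2.24 (adjusted p = 0.00163), against -1.34 with it (adjusted p = 0.157). The difference from wild type with PBS likewise went from -0.74 (adjusted p = 0.502) to -1.65 (adjusted p = 0.0265). When each of the 6 arrays of a comparison was left out in turn, adjusted p-values reached 0.482 against the dorsal mutant. Against wild type with PBS they reached 0.876.

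The gene eater encodes a surface receptor that binds bacteria and serves hemocyte adhesion. Wild type arrays read 311.8, 178.1 and 204.7 after PBS and 238.3, 257.5 and 66.2 after E. coli, and these groups overlapped. In the Relish mutant the signals were 378.8, 133.9 and 204.3, the first above every wild type array and the others within the wild type range. The Dif mutant gave 465.0, 327.7 and 347.5, and the dorsal mutant 550.5, 423.9 and 610.9. Both of these groups lay above all wild type arrays and overlapped each other. The eater differences from wild type with E. coli were 0.87 in the Dif mutant (SE 0.38, adjusted p = 0.274) and 1.27 in the dorsal mutant (SE 0.38, adjusted p = 0.0842), neither of which passed.

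Draper, the engulfment receptor encoded by drpr, was measured by its tested probe set at 1648.3 units or more on every array. Wild type larvae gave 4696.2, 3893.9 and 3720.7 units with PBS and 5057.9, 3660.2 and 4521.1 with E. coli, with no separation of the groups. The Relish mutant arrays, at 3263.2, 3213.7 and 4212.3, overlapped both wild type groups. In the Dif mutant the signals were 3171.9, 1648.3 and 2719.4, and in the dorsal mutant 5421.1, 6200.0 and 4421.8. All Dif arrays lay below all wild type arrays and all dorsal arrays. By the tested probe set, Draper transcript was lower in the Dif than in the dorsal mutant. The log2 difference was -1.10 (SE 0.24, 95% interval -1.60 to -0.61, adjusted p = 0.0121), or 2.15-fold. In that comparison 2.84% of all probe sets were called lower. The call was lost without the second Dif array (-0.83, adjusted p = 0.0701) and without the second dorsal array (-0.99, adjusted p = 0.0552).

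The drpr difference between the Dif mutant and wild type with E. coli was -0.83 (SE 0.24, adjusted p = 0.0719) and missed the threshold. It was -1.02 without the first Dif array (adjusted p = 0.0447). Over the fits that each left out 1 of the 6 arrays, it ran from -1.02 to -0.56, with adjusted p-values up to 0.275. The dorsal mutant differed from wild type with E. coli by 0.27 (95% interval -0.22 to 0.77, adjusted p = 0.637), and its arrays overlapped the wild type arrays. The other drpr probe set reached 160 units on 1 array only, at 168.1 in wild type with PBS, and lay below 80 units on 10 of 15. Its lowest signal was 37.3, and it was not tested.

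**Figure D2:**
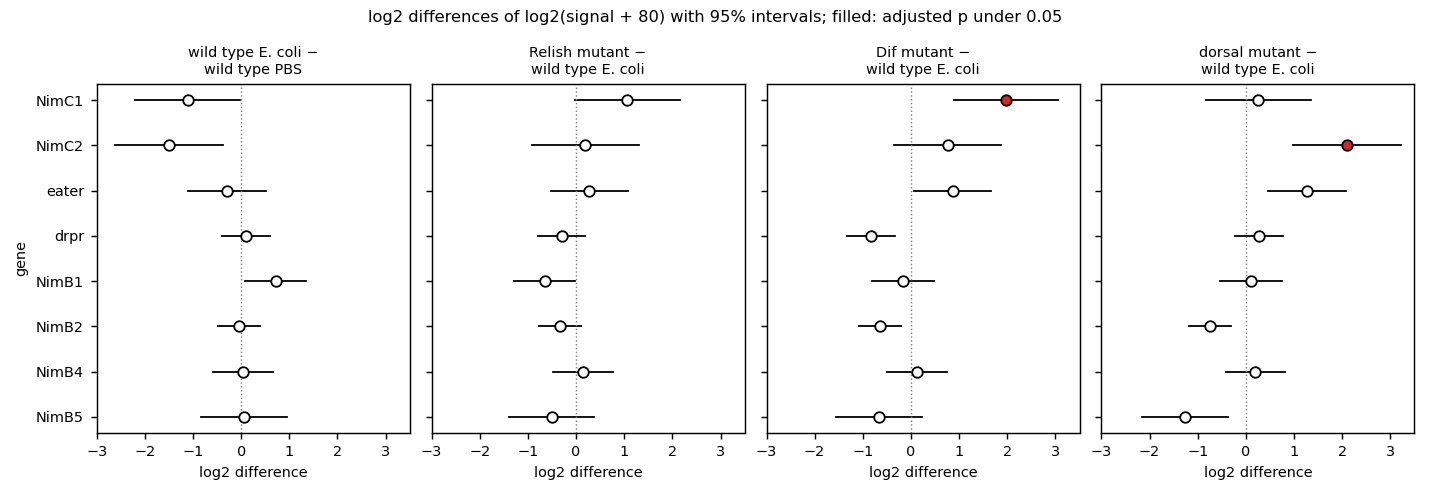
Difference in log2(signal + 80) (x axis) for the 8 tested genes (y axis) in wild type E. coli against PBS and in each mutant against wild type with E. coli. Circles are estimates, lines are 95% intervals of the fit over all arrays, and filled circles passed the adjusted test. The filled circles are NimC1 in the Dif mutant at 1.98 and NimC2 in the dorsal mutant at 2.10.

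NimB2 is a secreted member of the family. Its probe set gave 9015.0, 8514.1 and 8558.2 units with PBS and 8576.5, 8159.9 and 8482.2 with E. coli. In the mutants the signals were 7747.0, 7292.5 and 5165.5 for Relish, 5959.7, 6289.8 and 4104.1 for Dif and 6004.5, 4890.3 and 4297.6 for dorsal. Every mutant array lay below every wild type array, and the mutants overlapped each other. NimB2 was lower in the dorsal mutant than in wild type with PBS by -0.78 (SE 0.21, 95% interval -1.22 to -0.35, adjusted p = 0.0492), where 1.73% of all probe sets were called lower. Leaving out any of the 6 arrays ended this call, with adjusted p-values from 0.0556 to 0.152. Against wild type with E. coli the NimB2 differences were -0.74 in the dorsal mutant (adjusted p = 0.0617), -0.64 in the Dif mutant (adjusted p = 0.119) and -0.34 in the Relish mutant (adjusted p = 0.526), none of which passed.

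NimB5, a secreted protein of the fat body that acts on hemocyte adhesion and number, gave 263.8, 246.6 and 438.1 units with PBS and 341.4, 299.0 and 336.2 with E. coli in wild type. The dorsal mutant arrays gave 73.4, 99.4 and 95.5 and lay below all arrays of wild type. Relish and Dif mutant arrays were spread widely, at 450.2, 104.7 and 155.4 and at 365.5, 134.0 and 96.2, the first array being the highest in both. The NimB5 difference between the dorsal mutant and wild type with E. coli was -1.26 (SE 0.42, adjusted p = 0.126) and did not pass.

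NimB1, another secreted member, gave 392.2, 216.6 and 366.1 units with PBS and 661.8, 567.8 and 496.0 with E. coli in wild type. All arrays with E. coli lay above all arrays with PBS, and the difference was 0.72 (SE 0.30, adjusted p = 0.968). The Relish mutant gave 242.3, 407.1 and 371.5, all below wild type with E. coli and within or near the range with PBS, a difference from wild type with E. coli of -0.66 (SE 0.30, adjusted p = 0.356). The Dif mutant gave 364.8, 528.1 and 650.3 and the dorsal mutant 592.7, 511.3 and 790.0, both overlapping wild type with E. coli. No difference of NimB1 passed.

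NimB4, a secreted protein that binds apoptotic cells, was the member with the smallest differences. Its signals ran from 812.0 to 1910.9 over all arrays, and every group overlapped every other. The differences between groups lay between -0.07 and 0.23, with an SE of 0.29, and the 95% intervals ran from -0.69 to 0.85 at their widest bounds.

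Read over the members as a whole, each comparison held few calls. With E. coli against PBS in wild type, 0 of 8 members were called where 0.158% of all probe sets were, and 3 (NimC1, NimC2 and NimB1) had an unadjusted p under 0.05, as did 4.73% of all. For the Relish mutant against wild type with E. coli, 0 of 8 were called against 1.88% of all, and 1 (NimB1) had an unadjusted p under 0.05, against 13.4% of all. The arrays of the groups did not overlap for 4 members in that comparison, NimC1 and NimC2 being higher and NimB1 and NimB2 lower, against 19.4% of all probe sets. The Dif mutant against wild type with E. coli had 1 call among the 8, where 2.68% of all probe sets were called, and 4 members with no overlap, where 22.4% of all had none. NimC1 and eater were higher there, and NimB2 and drpr lower. The dorsal mutant against wild type with E. coli had 1 call among the 8, where 3.52% of all were called, and 4 members with no overlap, where 21.7% of all had none. NimC2 and eater were higher there, and NimB2 and NimB5 lower.

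Between mutants, the Dif and dorsal groups had 1 call, drpr, where 5.18% of all probe sets were called, and 2 members with no overlap where 24.4% had none. For the Relish against the dorsal mutant there was no call (0 of 8), where 3.05% of all were called, and 4 members had an unadjusted p under 0.05, as did 16.6% of all. Without a call, NimC2, eater, drpr and NimB1 were lower and NimB5 higher in the Relish mutant with no overlap of arrays, against 20.4% of all probe sets. The largest of these was NimC2, at -1.90 (SE 0.53, adjusted p = 0.0633). The Relish against the Dif mutant had 0 of 8 called, where 1.15% of all were. There drpr, higher by 0.53 in the Relish mutant (adjusted p = 0.354), was the 1 member with an unadjusted p under 0.05 (12.9% of all) and the 1 whose arrays did not overlap (16.5% of all).

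Against wild type with PBS, the Relish mutant had 0 of 8 members called where 1.14% of all were, and NimC2 alone had an unadjusted p under 0.05, as did 14.1% of all. Its arrays and those of NimB2 were lower with no overlap, as the groups did not overlap for 20.7% of all. The Dif mutant had 0 of 8 called where 2.14% of all were, and 2 members, NimB2 and drpr, had an unadjusted p under 0.05, against 17.9% of all. Its arrays did not overlap wild type with PBS for 4 members, NimC1 and eater being higher and NimB2 and drpr lower, against 25.0% of all. The dorsal mutant had 1 of 8 called, NimB2, where 2.97% of all were. Its arrays did not overlap for 4 members, eater and NimB1 being higher and NimB2 and NimB5 lower, against 22.9% of all. These comparisons share their control arrays, and so do the mutant comparisons with wild type E. coli.

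**Figure D3:**
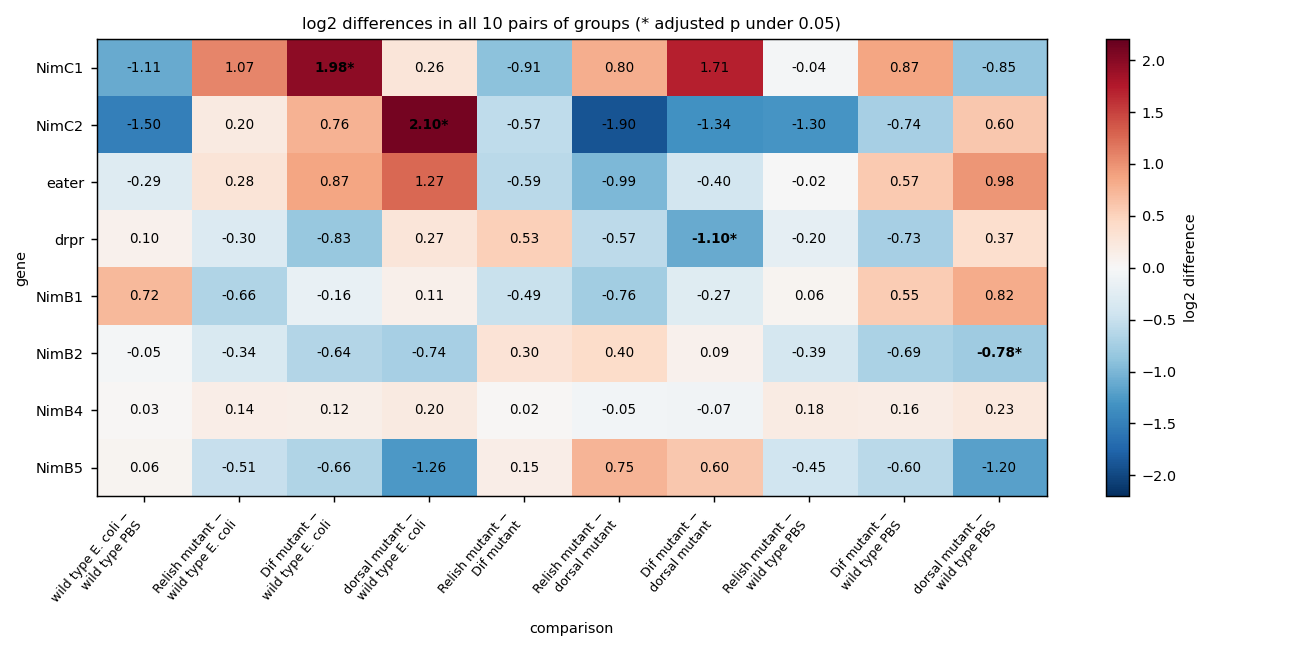
Differences in log2(signal + 80) of the 8 tested genes (rows) in all 10 pairs of groups (columns), the first group named minus the second. Red is higher and blue lower in the first group, the value is printed in each cell, and an asterisk marks an adjusted p under 0.05. Asterisks stand at 1.98, 2.10, -1.10 and -0.78, and the NimB4 row stays between -0.07 and 0.23.

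The order of the group means differed between members. By mean log2(signal + 80), NimC2, eater, drpr, NimB1 and NimB4 were highest in the dorsal mutant, NimC1 in the Dif mutant, NimB2 in wild type with PBS and NimB5 in wild type with E. coli. The lowest mean was that of the dorsal mutant for NimB2 and NimB5, that of the Dif mutant for drpr, that of wild type with PBS for NimB1 and NimB4 and that of wild type with E. coli for NimC1, NimC2 and eater. No step between neighbouring groups in these orders passed the test for any member. The smallest adjusted p of a step was 0.354, for drpr between the Relish and Dif mutants.

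Across the 15 arrays, the members followed no common course. As a description over arrays that share the 5 groups, NimB2 and NimB5 had the highest correlation of any pair of members (r = 0.72, rho = 0.63), and NimC1 and drpr the lowest (r = -0.71, rho = -0.79). The genes whose signals were most like each member were taken by Pearson correlation over the same arrays. Each was picked as among the highest of all other genes tested, so high values follow in part from the picking, and no correlation was tested. They were PHDP (r = 0.89), boil (r = 0.88) and APP-BP1 (r = 0.86) for NimC1, and CG14644 (r = 0.87), CG13255 (r = 0.84) and Sem1 (r = 0.84) for NimC2. For eater they were Arl6IP1 (r = 0.89), crim (r = 0.87) and Ance (r = 0.85). For drpr they were rhea, which encodes the integrin adaptor talin (r = 0.92), Ldaf1 (r = 0.92) and siz (r = 0.91). The genes most like NimB2 were CG6503 (r = 0.92), Fdh (r = 0.92) and Obp99c (r = 0.91), and those most like NimB5 were CG30291 (r = 0.78), LpR1 (r = 0.76) and Erasp (r = 0.76). For NimB1 they were CG3817 (r = 0.83), Ced-12 (r = 0.82), a component of the engulfment pathway, and 5PtaseI (r = 0.82), and for NimB4 they were ATPsynGL (r = 0.76), Idgf6 (r = 0.76) and ssp5 (r = 0.75).

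Other Nimrod genes gave low signals. NimC3 ranged from 26.7 to 129.0 units, and NimC4, a receptor for apoptotic cells, from 7.3 to 218.3 with 2 arrays at or above 160. Neither was tested. NimA and NimB3 were not analysed here.

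Genes that act with or after these receptors were read from 3 further lists. Of 30 listed genes of the Draper and engulfment pathway, 17 were on the array by a single symbol and 16 were tested. In wild type with E. coli against PBS, and in the Relish and dorsal mutants against wild type with E. coli, 0 of the 16 passed, where 0.158%, 1.88% and 3.52% of all probe sets did. In the Dif mutant against wild type with E. coli 1 of 16 passed, where 2.68% of all did. This was CaBP1, which encodes a protein of the disulfide isomerase family described as a tether for apoptotic cells. CaBP1 was at 3901 ± 644 units in the Dif mutant and 1823 ± 85.2 in wild type with E. coli (SD, n = 3 each), a difference of 1.05 (SE 0.20, adjusted p = 0.00800 by limma). It was also 0.85 higher than in the dorsal mutant (SE 0.20, adjusted p = 0.0208), the 1 call among the 16 where 5.18% of all probe sets were called. The 16 genes had medians of 0.10 in the Dif mutant and 0.22 in the dorsal mutant against wild type with E. coli, beside 0.11 and 0.11 over all 9190 genes tested.

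Of 28 genes of phagosome actin and maturation, 20 were tested, and 2 were called in the dorsal mutant against wild type with E. coli, both lower, where 3.52% of all probe sets were called in either direction. These were cher, which encodes filamin, at -1.26 (SE 0.25, adjusted p = 0.00909), and Vha55, a subunit of the vacuolar proton pump, at -1.07 (SE 0.24, adjusted p = 0.0218). Both were higher in the Dif than in the dorsal mutant, by 1.22 and 0.90, the 2 calls among the 20 where 5.18% of all were called. Against wild type with PBS the dorsal mutant had lower cher, Vha55 and Arpc2, a subunit of the Arp2/3 complex, by -1.25, -1.25 and -1.08, the 3 calls among the 20 where 2.97% of all were called. Of 9 tested genes among 17 other phagocytic receptors and opsonins, 1 was called in the dorsal mutant against wild type with E. coli, where 3.52% of all probe sets were, and 0 of 9 in the Dif and Relish mutants against the same group. Tep4, a thioester protein, was 0.99 lower in the dorsal mutant than in wild type with E. coli, at a difference of -0.99 (SE 0.24, adjusted p = 0.0299).

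**Figure D4:**
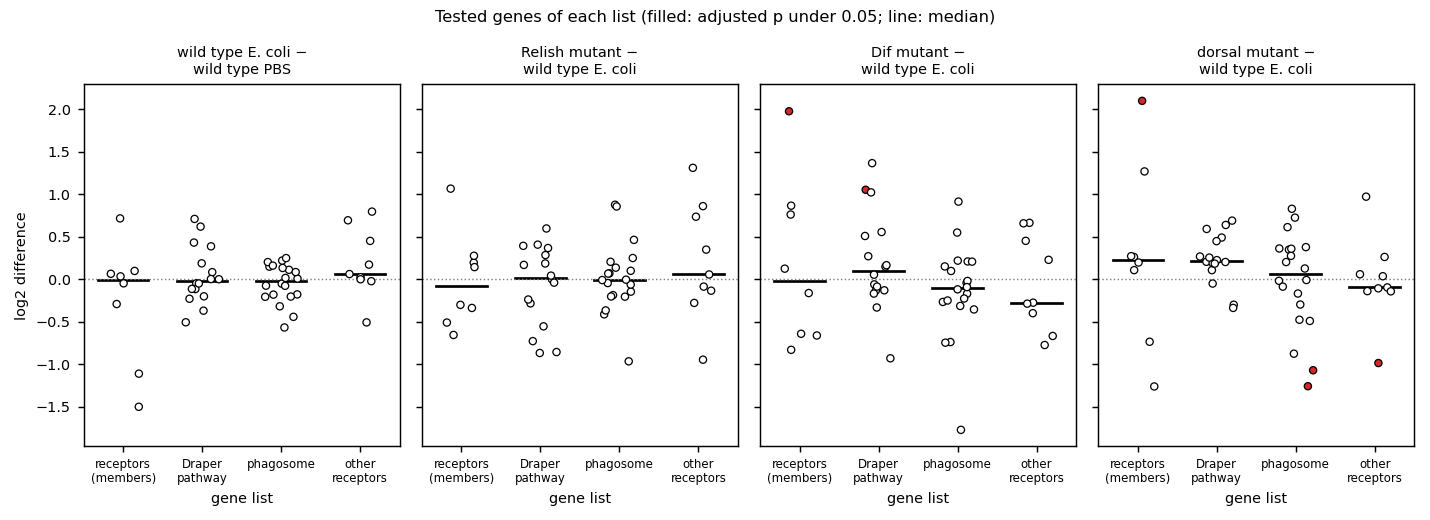
Difference in log2(signal + 80) (y axis) of each tested gene among the members and in the 3 related lists (x axis), for E. coli against PBS in wild type and for each mutant against wild type with E. coli. The column marked receptors holds all tested members, of which NimB1, NimB2, NimB4 and NimB5 encode secreted proteins. Points are genes, filled points passed the adjusted test, and the horizontal line is the median of the list. Filled points are NimC1 at 1.98 and CaBP1 at 1.05 in the Dif mutant, and NimC2 at 2.10, cher at -1.26, Vha55 at -1.07 and Tep4 at -0.99 in the dorsal mutant.

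Markers of the cells that carry these receptors went in both directions beside the differences above. Hml, a plasmatocyte gene, gave 2291.9 to 3294.8 units on the dorsal arrays and 940.1 to 1395.6 in wild type with E. coli, a difference of 1.27 (SE 0.22, adjusted p = 0.00291). Pxn, another plasmatocyte gene, was 1.02 higher in the same comparison (SE 0.25, adjusted p = 0.0297). Of the 10 tested genes in the list of 12 plasmatocyte and general hemocyte markers, these 2 were called higher and 0 lower. In that comparison 3.52% of all probe sets were called. The other 8 had a negative difference, and the median was -0.35 beside 0.11 over all genes. The summed signal of that list was 13938.7 to 17486.5 on the dorsal arrays, below the 17608.1 to 28203.1 of wild type with E. coli. Such a sum depends most on the probe sets of highest signal, and it was lower although Hml and Pxn were higher. The part of these markers in the NimC2 and eater values of the dorsal mutant was not tested. In the Dif mutant, where NimC1 was higher, 0 of the 10 were called against wild type with E. coli, where 2.68% of all probe sets were. The summed signal of the list, 17808.6 to 27186.5, overlapped that of wild type. Of 4 tested crystal cell markers, 1 was called there, PPO1, higher by 1.15 (adjusted p = 0.0166). Of the 4 differences 2 were negative, and the median was -0.07. PPO1 had a mean of 2929 units in the Dif mutant and 7651 in the Relish mutant, where NimC1 was not called. The part of PPO1 in the NimC1 value was not tested.

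Beside the lower drpr of the Dif mutant against the dorsal mutant, Hml was lower by -1.05 (adjusted p = 0.0104), while the hemocyte list's Col4a1 and Ppn, which encode matrix proteins, were higher by 1.26 and 0.88. Among the 10 tested hemocyte markers, 2 were called higher and 1 lower, where 5.18% of all probe sets were called. Of the 10 differences 7 were positive and 3 negative, with a median of 0.58 beside 0.02 over all genes. None of the 7 tested glial markers was called in that comparison, and their summed signals, 4177.3 to 4847.4 in the Dif and 4044.5 to 6755.3 in the dorsal mutant, overlapped. Beside the lower NimB2 of the dorsal mutant, 0 of 5 fat body markers were called against wild type with PBS, where 2.97% of all probe sets were. Of their differences 3 were positive and 2 negative, and their summed signal was 250338 to 368007 against 137842 to 191619. In the same comparison 2 of 10 hemocyte markers (Ppn and glob1) were called lower and 1 (Hml) higher. Of the 10 differences 6 were negative and 4 positive, with a median of -0.50 beside 0.12 over all genes. The summed signal of the hemocyte list was 13938.7 to 17486.5 in the dorsal mutant and 20105.8 to 29358.8 in wild type with PBS, with no overlap. The means of Hml and Pxn went the other way, at 2952 and 2310.8 in the dorsal mutant against 1583 and 1224.5. The part of these markers in the drpr and NimB2 values was not tested.

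Some markers of the fat body and salivary gland varied widely between arrays of a group, and others varied less. Fbp1, a fat body gene of late larvae, gave 48996.5 units on the first Dif array, where NimC2 was 2037.0, and 350.7 and 6023.2 on the others, where NimC2 was 215.9 and 267.6. It gave 49692.8, 49745.2 and 119973.4 on the dorsal arrays, which also had high NimC2. It was also high on Relish replicates 1 and 3, at 54651.9 and 91089.2, where NimC2 was 348.0 and 306.4. Fbp1 is 1 of 5 tested fat body markers. Another, Lsp2, ran only from 98244.5 to 107836.6 in the Relish mutant, where Fbp1 ran from 1559.4 to 91089.2. In the dorsal mutant against wild type with E. coli, 0 of the 5 were called, where 3.52% of all probe sets were. Of these differences 3 were positive and 2 negative. The summed signal of the salivary gland list, 8 of whose 10 genes were on the array, was 322089 to 585713 on the dorsal arrays and 17878.2 to 252565 in wild type with E. coli. Of that list, Sgs4, a glue protein gene, was called higher in each mutant than in either wild type group. It was the 1 call among the 8 tested each time, where 1.14% to 3.52% of all probe sets were called. Against wild type with PBS the list was split in the Relish mutant (3 positive, 5 negative, median -0.77). It was also split in the Dif mutant (5 positive, 3 negative, median 0.02). In the dorsal mutant 8 were positive and 0 negative (median 1.72). The part of these genes in the NimC2 values was not tested.

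**Figure D5:**
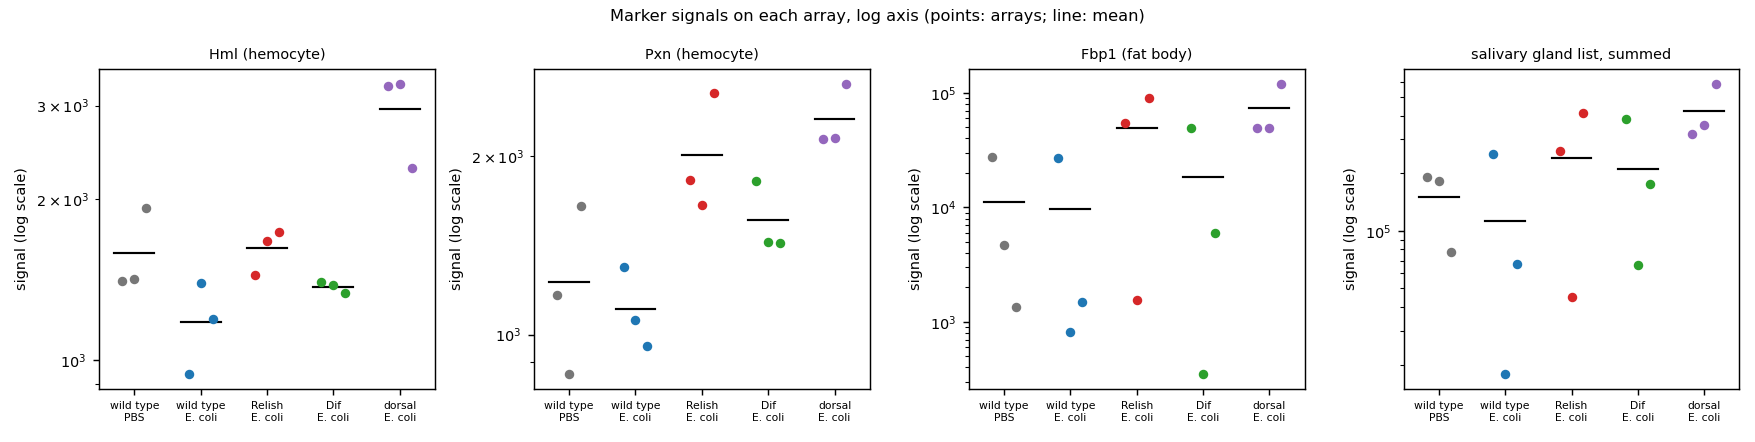
Signal (log axis) of the hemocyte genes Hml and Pxn, the fat body gene Fbp1 and the summed salivary gland list on each array, by group. Of 10 tested hemocyte markers, these 2 were called higher in the dorsal mutant than in wild type with E. coli. The other 8, not shown, had negative differences there. Points are arrays in replicate order and the line is the mean. Hml is at 2291.9 or more on the 3 dorsal arrays, above every other array, and Fbp1 spans 350.7 to 48996.5 within the Dif mutant.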

How the data were processed

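The authors deposited 1 signal intensity per probe set and array, on a linear scale, made with Microarray Suite 5.0 at default settings and globally scaled, per the labels. The table held 14010 probe sets, of which 44 controls were left out. Gene names came from the platform annotation, checked against the RefSeq table of Release 6, where 12394 of 12443 probe sets with 1 symbol were found. Groups followed the treatment text. Signals were analysed as log2(signal + 80). Probe sets with at least 160 units on at least 3 arrays were tested (11427 kept, 2539 removed). A linear model with 5 group means was fitted to the 15 arrays with limma 3.58.1 in R 4.3.3 (lmFit, eBayes with a variance trend), with two-sided moderated tests, 10 residual degrees of freedom and Benjamini-Hochberg adjustment over all probe sets tested. The script was tested on simulated data. Every member was reported in every comparison. The members and lists were chosen with earlier results of these data known. Whether the pools of a group are separate cultures is not stated in the labels, and the p-values describe only how much these pools varied, part of which may be technical. Alternatives covered the pseudocount, the filter, normalization, variance model, array weights, samples fitted, arrays with the same title number, the replicate number as a block and leaving out each array. The number of arrays limits the precision. Same-numbered arrays of different groups deviated together in 7 of 30 pairs (correlation over 0.1) and in 0 of the comparisons for all pairs, so the numbers were not taken to pair them.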

Additional observations from a re-analysis of the deposited data

Results flagged for a closer look

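The drpr signal of the tested probe set was flagged because the Dif and dorsal mutants differed from each other in a direct test. The difference was -1.10 on the log2 scale (SE 0.24, adjusted p = 0.0121). Both mutants received E. coli according to their treatment text, a point that the titles leave unsettled. Against wild type with E. coli the drpr difference was -0.83 in the Dif mutant and 0.27 in the dorsal mutant. NimC1 and NimC2 showed no such difference that passed over all arrays.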

How the results depend on the processing

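The settings moved the totals over all probe sets as well as the member counts. For the dorsal mutant against wild type with E. coli, the main fit called 402 probe sets. That total was 194 with no variance trend, 71 after averaging arrays whose titles share a number and 674 with array weights. Leaving out 1 array gave 145 to 377. The counts of members called moved as follows. For the Dif mutant against wild type with E. coli the count was 0 in place of 1 with a pseudocount of 20, with no filter, with a filter of 320, with quantile normalization, with no variance trend, after averaging arrays whose titles share a number ("averaged title numbers") and with the replicate number as a block, and 2 with array weights. For the dorsal mutant against wild type with E. coli it was 0 with no filter, no variance trend or averaged title numbers, 3 with array weights and 2 with the replicate block. For the Dif against the dorsal mutant it was 2 with array weights and 0 with only the groups compared, averaged title numbers, or the block with only these groups. For the dorsal mutant against wild type with PBS it was 0 with a pseudocount of 20, no filter, quantile normalization, no variance trend, only the groups compared, averaged title numbers, or the block with only these groups, and 2 with array weights. For the Dif mutant against wild type with PBS array weights gave 1, and for the Relish against the dorsal mutant only the groups compared gave 1, with or without the block (NimC2, adjusted p = 0.0170 and 0.0431). E. coli against PBS gave 1 only with the block and only these groups, an alternative chosen after seeing the data (NimC2, -1.50, adjusted p = 0.0348). These 2 groups share replicate numbers and also the numbers and letters in their titles, which the labels do not say pair arrays. Their same-numbered arrays had deviations correlated at 0.340, 0.180 and 0.0763, the first being the highest of any pair. Over all comparisons, an array correlated best with its own number in 26 of 60 checks. Over the 5 groups, no filter, no variance trend and averaged title numbers each gave 0 in place of 2, quantile normalization 1 and array weights 4.

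Leaving out 1 array at a time, the count ran from 0 to 1 for the Dif mutant against either wild type group, from 0 to 2 for the Dif against the dorsal mutant and over the 5 groups, and from 0 to 0 in the other 7 comparisons, which include the dorsal mutant against either wild type group. Over the 5 groups, drpr lost its call without 11 of the 15 arrays and NimB2 without 14, while NimC2 gained a call without Dif replicate 1 (adjusted p = 0.000648) or 2 (0.0409), and NimC1 gained one without dorsal replicate 3 (0.0161).

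Differences that were not called changed sign as follows. With array weights they became -0.050 for NimB5 and -0.0014 for NimB4 (E. coli against PBS), -0.065 for NimC1 (dorsal against wild type with E. coli), -0.0070 for NimB2 (Dif against dorsal), and 0.21 for NimC1, 0.027 for eater and -0.0045 for NimB1 (Relish against PBS). Averaged title numbers gave -0.069, -0.0084 and -0.027 for NimB4 (E. coli, Relish and Dif against PBS) and -0.0021 for NimB1 (Relish against PBS). Quantile normalization gave -0.0030 and -0.11 for NimB1 (dorsal against wild type with E. coli, Relish against PBS), and a pseudocount of 320 gave 0.0034 for eater (Relish against PBS). Leaving out 1 array at a time, the values with a change of sign ranged as follows. For E. coli against PBS, they ran from -0.059 to 0.27 for NimB5, -0.51 to 0.10 for eater, -0.16 to 0.40 for NimB4 and -0.0050 to 0.22 for drpr. For Relish against wild type with E. coli, they ran from -0.11 to 0.53 for eater and -0.083 to 0.31 for NimB4. For Dif against wild type with E. coli, they ran from -0.15 to 1.27 for NimC2, -0.10 to 0.29 for NimB4 and -0.33 to 0.032 for NimB1. For dorsal against wild type with E. coli, they ran from -0.37 to 0.60 for NimC1, -0.029 to 0.36 for NimB4 and -0.047 to 0.23 for NimB1. For Relish against Dif, they ran from -0.30 to 0.55 for NimB5, -1.08 to 0.34 for NimC2 and -0.13 to 0.14 for NimB4. For Relish against dorsal, they ran from -0.20 to 0.028 for NimB4. For Dif against dorsal, they ran from -0.020 to 0.28 for NimB2 and -0.19 to 0.019 for NimB4. For Relish against PBS, they ran from -0.48 to 0.24 for NimC1, -0.31 to 0.24 for eater, -0.022 to 0.55 for NimB4 and -0.15 to 0.24 for NimB1. For Dif against PBS, they ran from -0.040 to 0.53 for NimB4. The causes were not tested. Arrays limit precision to 3 per group, and some signals of NimC1, NimB5 and eater lie below the filter of 160. The lowest were 18, 73.4 and 66.2 units.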
